A study of Mus musculus with 6 samples.

Results

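The small heat shock proteins and their co-chaperone *Bag3* were followed in a mouse myoblast model of myotonic dystrophy type 1 (DM1). Members were the rows whose gene name was *Cryab*, *Hspb1*, *Hspb2*, *Hspb3*, *Hspb6*, *Hspb7*, *Hspb8*, or *Bag3*, which are 8 of the 55421 genes in the count table. The cells were C2C12 myoblasts, a mouse muscle cell line that fuses into myotubes in low serum, and both groups carried a stably integrated *GFP* plasmid and had been selected with G418. The plasmid of the normal group (C2C12-CUG5) has 5 repeats after *GFP*, and that of the DM1 group (C2C12-CUG200) has 200. Each group had 3 libraries of total RNA from differentiation day 4, with 61707889 to 80957325 counts a library. DM1 library 3 was less close to its group than the other DM1 libraries were to each other (50.7): its chi-square per degree of freedom over genes was 147 against DM1 library 1 and 100.01 against DM1 library 2, and 137, 125, and 158 against normal libraries 1, 2, and 3. Of the 3 calls among the members, none was lost without DM1 library 3. Normal library 1 also lay apart from its group, at 78.0 and 101 against normal libraries 2 and 3, which were at 39.5 from each other. Without normal library 1 the same members were called, *Bag3* narrowly (adjusted p = 0.0498 by edgeR's quasi-likelihood test). The repeat of each plasmid lies in a *GFP* transcript and not in *Dmpk*, the gene that carries it in the disease. The methods do not say whether a group was 1 clone or a pool, nor whether its replicates came from separate transfections, so that the p-values measure the spread between these libraries only.

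Small heat shock proteins are chaperones that need no ATP and hold unfolding proteins until HSP70 can refold them or pass them to degradation. Muscle holds many of them, bound to desmin, titin, filamin, and actin at the Z-disc. BAG3 bridges HSPB8 to HSP70 and the ubiquitin ligase CHIP and sends stretched or damaged filamin to autophagy, a route called chaperone-assisted selective autophagy. Mutations of *BAG3* and *CRYAB* cause myofibrillar myopathies. HSPB2 is also called the DMPK-binding protein, because it binds the kinase whose gene holds the DM1 repeat.

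Some genes of this group, among them *Hspb1* and *Bag3*, are induced by heat shock factors, while others are known mainly for their expression in muscle. The element that heat shock factors bind is built from inverted GAA blocks. Promoter windows from RefSeq on GRCm38.p6 (250 bases before to 50 after each transcript start) were found for 6 of the 8 members, 7 windows in all, and not for *Cryab* and *Hspb2*. The letters GAANNTTC, which read the same on both strands, were in the windows of *Hspb1*, *Hspb3*, *Hspb6*, *Hspb8*, and *Bag3* and not in that of *Hspb7*. Of the 2 windows of *Hspb6*, only the second had them. Of 32851 windows of the same length for all genes, 7.86% hold these letters. The other orientation of the blocks, TTCNNGAA, was in none of the members' windows and in 8.52% of all windows. The muscle E-box CAGCTG was in none of the members' windows and in 16.3% of all. The 6 matches, from 5 of the 8 members, are shown to let these promoters be compared; the match is in capitals, read 5′ to 3′ on the strand of the gene:
Hspb1, first match: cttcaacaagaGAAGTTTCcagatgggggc
Hspb1, second match: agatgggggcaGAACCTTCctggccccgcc
Hspb3: ctccccgaatgGAATTTTCaggcagaggga
Hspb6: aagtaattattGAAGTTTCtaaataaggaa
Hspb8: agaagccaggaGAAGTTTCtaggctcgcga
Bag3: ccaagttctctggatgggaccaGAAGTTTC

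The shown bases of *Hspb1* are chr5:135887791-135887820 and chr5:135887811-135887840 on the plus strand, upstream of the annotated gene, with the matches starting at -117 and -97 from the first transcribed base. Those of *Hspb3* are chr13:113663882-113663911 on the minus strand, also upstream, with the match at -224. Those of *Hspb6* are chr7:30553170-30553199 on the plus strand, 120 bases before the second RefSeq start and within an annotated intron. The matches of *Hspb8* (chr5:116422844-116422873, minus strand, from base 3 of the transcript) and *Bag3* (chr7:128523603-128523632, plus strand, from base 43) lie in the untranslated region that opens the transcript. *Hspb1*, *Hspb6*, *Hspb8*, and *Bag3* each have the same 8 letters, GAAGTTTC. A match describes these letters only and is not a binding site measured here.

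In DM1 cells *Hspb7*, *Hspb8*, and *Bag3* fell, and no member rose. *Hspb7* was at 49.5% of the mean of the normal group, *Hspb8* at 65.5%, and *Bag3* at 72.7%, on the scale of CPM (counts scaled to library size with TMM factors). In bulk RNA, fewer cells of a type and less RNA of a gene in each cell cannot be told apart. The remaining members, *Cryab*, *Hspb1*, *Hspb2*, *Hspb3*, and *Hspb6*, were not past the threshold. In the edgeR quasi-likelihood test across 19005 genes, 3 of the 8 members were lower at an adjusted p-value under 0.05, where 8.73% of all tested genes were, and 0 were higher, where 7.13% were. The count of members was also 0 higher with DESeq2, and no higher member had an unadjusted p-value under 0.05. All 8 members passed the filter on low counts. Their median log2 fold change was -0.22, and it was 0.02 over all tested genes. With a cutoff of 1 on the absolute log2 fold change, 1 member, *Hspb7*, was called lower, and 0.816% of all genes were.

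**Figure D1:**
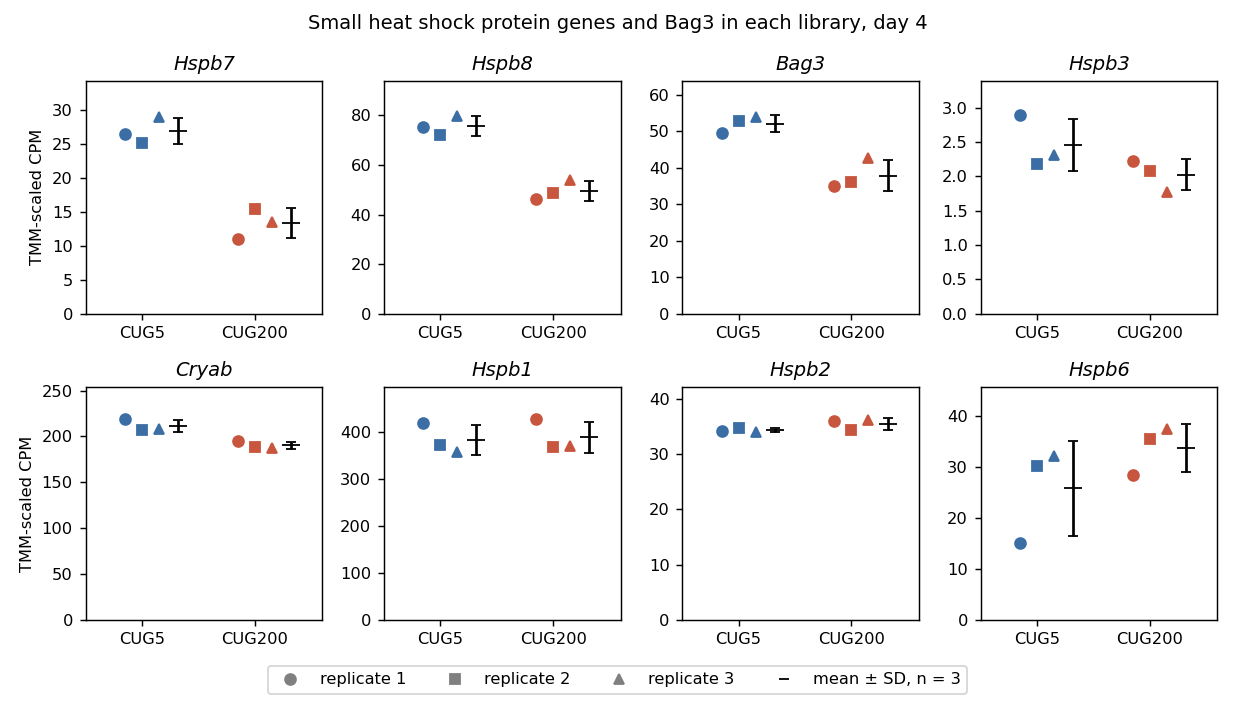
TMM-scaled CPM of each gene in the 3 CUG5 (blue) and 3 CUG200 (red) libraries, with symbols for the replicate number and black bars for the mean ± SD (n = 3). The red points of *Hspb7*, *Hspb8*, *Bag3*, and *Cryab* all lie below the blue ones, while those of *Hspb1*, *Hspb2*, *Hspb3*, and *Hspb6* overlap.

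*Hspb8* and *Bag3* encode the partners of the selective autophagy complex. *Hspb8* (ENSMUSG00000041548), on the minus strand of chromosome 5 of GRCm38 from 116408491 to 116422864, had 75.2, 71.98, and 79.9 CPM in the normal libraries and 46.2, 48.6, and 53.9 CPM in the DM1 libraries. The highest DM1 library thus lay well under the lowest normal one. The means were 75.7 ± 3.98 and 49.6 ± 3.95 CPM (mean ± SD, n = 3), and the log2 fold change was -0.61 with a standard error of 0.0881 (adjusted p = 0.00420 by edgeR's quasi-likelihood test). *Bag3* (ENSMUSG00000030847), on the plus strand of chromosome 7 from 128523616 to 128546981, had 49.5, 52.9, and 53.9 CPM in the normal libraries and 34.8, 36.0, and 42.7 CPM in the DM1 libraries. Here too the groups did not overlap, with the third DM1 library nearest to the normal ones. The means were 52.1 ± 2.30 and 37.9 ± 4.21 CPM (mean ± SD, n = 3), and the log2 fold change was -0.46 with a standard error of 0.0988 (adjusted p = 0.0170 by the same test). This call was lost without normal library 2 (adjusted p = 0.0662), without normal library 3 (0.0857), and without DM1 library 2 (0.0777), and in limma-trend on TPM (0.0593 and 0.0562), with the log2 fold change between -0.39 and -0.59 over all 17 alternatives. A short transcript model on the same strand, *2610306O10Rik*, lies inside *Bag3* and had at most 56 counts in a library.

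*Hspb7* (ENSMUSG00000006221), on the plus strand of chromosome 4 from 141420779 to 141425311, encodes the cardiovascular small heat shock protein, which binds filamin C and suppresses protein aggregation. Its normal libraries had 26.4, 25.1, and 28.8 CPM and its DM1 libraries 10.98, 15.4, and 13.5 CPM. Every DM1 library was far below every normal one. The means were 26.8 ± 1.91 and 13.3 ± 2.20 CPM (mean ± SD, n = 3), and the log2 fold change was -1.01 with a standard error of 0.137 (adjusted p = 0.00332 by edgeR's quasi-likelihood test). It stayed past the adjusted p-value in all 16 alternatives, from 8.75e-09 with DESeq2 to 0.0220. The change was close to the cutoff of 1, and without DM1 library 1 (log2 fold change -0.88) and without normal library 3 (-0.95) it fell short of it.

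**Figure D2:**
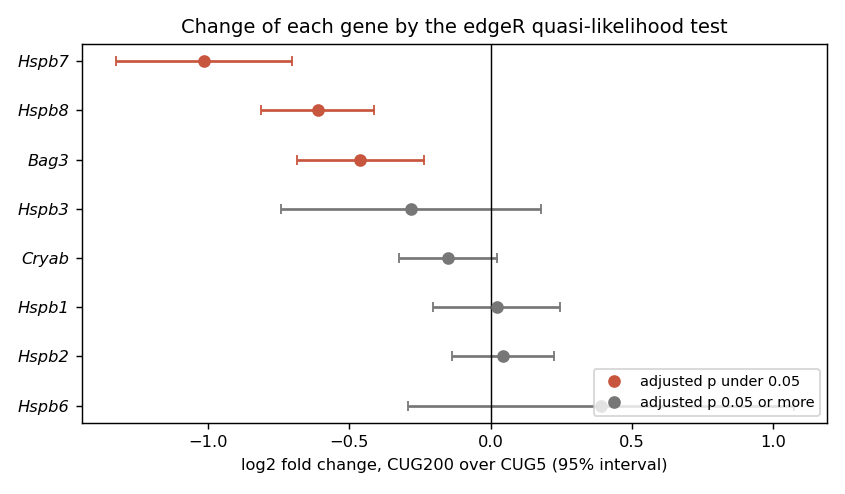
Log2 fold change of each gene, CUG200 over CUG5, with its 95% interval from edgeR's quasi-likelihood fit; red marks an adjusted p-value under 0.05. The intervals of *Hspb7*, *Hspb8*, and *Bag3* lie wholly below 0, and those of the other 5 genes include 0.

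*Cryab* and *Hspb1* encode the major small heat shock proteins of muscle, alpha B-crystallin and HSP25 (the mouse HSP27), which form mixed oligomers and protect desmin and actin filaments. *Cryab* (ENSMUSG00000032060), on the plus strand of chromosome 9 from 50751325 to 50756636, had 219, 207, and 208 CPM in the normal and 195, 189, and 188 CPM in the DM1 libraries. All DM1 libraries lay below all normal ones, by a small margin. The log2 fold change was -0.15 (95% interval from -0.32 to 0.02, adjusted p = 0.220 by edgeR's quasi-likelihood test), so that a fall larger than 0.32 on the log2 scale was outside the interval. In limma-trend on TPM it was -0.28, also not called (adjusted p = 0.168 and 0.166 with pseudocounts of 1 and 0.1). In 19.3% of all tested genes every DM1 library lay below every normal one, and 4 of the 8 members, *Cryab*, *Hspb7*, *Hspb8*, and *Bag3*, were of this kind. *Hspb1* (ENSMUSG00000004951), on the plus strand of chromosome 5 from 135887919 to 135889563, had 418, 372, and 357 CPM in the normal and 426, 368, and 369 CPM in the DM1 libraries. The groups overlapped almost entirely. Its log2 fold change was 0.02 (95% interval from -0.20 to 0.25, adjusted p = 0.914 by the same test).

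*Hspb2* and *Hspb3* encode partners that assemble with each other in differentiating muscle cells. *Hspb2* (ENSMUSG00000038086), on the minus strand of chromosome 9 from 50751078 to 50752354, had 34.3, 34.9, and 34.1 CPM in the normal and 35.95, 34.3, and 36.2 CPM in the DM1 libraries. Its normal libraries lay close together in CPM, with means of 34.4 ± 0.395 and 35.5 ± 1.04 CPM (SD, n = 3 each). Its log2 fold change of 0.05 (95% interval from -0.13 to 0.23, adjusted p = 0.756 by edgeR's quasi-likelihood test) leaves room for only a small change in either direction. *Dmpk* itself, whose kinase HSPB2 binds, had 309, 223, and 225 CPM in the normal and 218, 243, and 272 CPM in the DM1 libraries, a log2 fold change of -0.05 (adjusted p = 0.862 by the same test). *Hspb3* (ENSMUSG00000051456), a gene of 1 exon on the minus strand of chromosome 13 from 113662896 to 113663676, was the lowest member, with 118 to 243 counts a library. It had 2.89, 2.18, and 2.30 CPM in the normal and 2.22, 2.08, and 1.77 CPM in the DM1 libraries, which overlap through normal library 2 and DM1 library 1. The log2 fold change of -0.28 (adjusted p = 0.393 by the same test) had a wide 95% interval, from -0.74 to 0.18, so that a fall as large as that of *Hspb8* could not be told from no change for this gene. Without normal library 1 the log2 fold change was -0.15 (adjusted p = 0.738). In TPM, unlike CPM, all DM1 libraries of *Hspb3* lay below all normal ones, which 20.6% of all tested genes did on that scale, where the median log2 fold change of all genes in limma-trend was -0.06 and -0.09 with pseudocounts of 1 and 0.1.

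*Hspb2* and *Cryab* lie head to head. Their annotated spans overlap by 1030 bases on opposite strands, 252 of which are exonic in both, from 50751325 to 50751576, and the *Hspb2* start is 553 bases from the start of the *Cryab* transcript model Cryab-201. The strand setting of the counting is not given in the sources used here, so reads from the shared bases may have been given to either gene. Neither gene was called.

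*Hspb6* (ENSMUSG00000036854) encodes HSP20, a small heat shock protein that is phosphorylated by protein kinase A and acts on actin. It lies on the plus strand of chromosome 7 from 30552178 to 30555443 and had 15.1, 30.3, and 32.1 CPM in the normal and 28.4, 35.5, and 37.6 CPM in the DM1 libraries. Normal library 1 was far below all the others, and DM1 library 1 lay below the other normal ones, so that the groups overlapped. The log2 fold change was 0.39 (95% interval from -0.29 to 1.07, adjusted p = 0.417 by edgeR's quasi-likelihood test), and 0.11 (adjusted p = 0.677) without normal library 1. Without normal library 3 it was 0.59 (adjusted p = 0.303 by the same test). It was not past the threshold in any of the 17 alternatives. No member had every DM1 library above every normal one, which 17.9% of all tested genes had.

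Levels of different genes were compared on the deposited TPM values, which are per transcript length. In the normal group *Hspb1* had the highest level, 712 ± 99.98 TPM, followed by *Cryab* with 394 ± 34.6 TPM, *Hspb2* with 84.6 ± 7.54 TPM, and *Hspb8* with 70.0 ± 4.53 TPM (SD, n = 3 each). Below them stood *Bag3* with 34.1 ± 0.344, *Hspb6* with 31.9 ± 10.1, *Hspb7* with 16.2 ± 1.20, and *Hspb3* with 5.30 ± 1.12 TPM. In this order only *Bag3* and *Hspb6* overlapped in their libraries. In the DM1 group the order was the same except that *Hspb6*, at 39.1 ± 9.26 TPM, stood above *Bag3*, at 22.98 ± 4.97 TPM, and did not overlap with it, while it overlapped with *Hspb8* at 42.4 ± 7.81 TPM. *Hspb1*, *Cryab*, and *Hspb2* kept the first 3 places. The 8 genes together made up 0.125% to 0.150% of all TPM in the normal libraries and 0.112% to 0.129% in the DM1 libraries, and these ranges overlap. In CPM their sum was 796 to 840 in the normal and 729 to 780 in the DM1 libraries, and these ranges do not overlap.

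**Figure D3:**
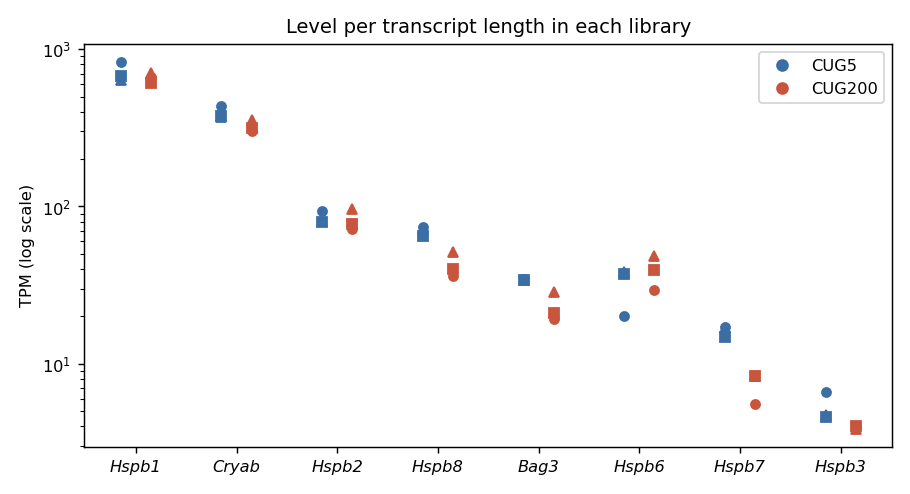
Deposited TPM of each gene on a log axis, with CUG5 libraries in blue and CUG200 libraries in red; circles, squares, and triangles are replicates 1, 2, and 3. The levels run from 825 TPM for *Hspb1* to 3.87 TPM for *Hspb3*. The red points of *Hspb7*, *Hspb8*, *Bag3*, *Cryab*, and *Hspb3* all lie below the blue ones, as they do for 20.6% of all tested genes in TPM.

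The ratios between partner genes asked whether partners changed together. For each of 4 pairs the log2 ratio of TPM was taken in every library, and in each pair the groups did not overlap. The two-sided exact permutation test gave p = 0.1 for every pair, also after adjustment over the 4 pairs. This is the smallest p that 3 libraries against 3 allow in this test. How often the ratio of any pair of genes separates the groups was not counted. Of single tested genes, 19.3% had every DM1 library below every normal one in CPM, and 17.9% above. *Bag3* to *Hspb8* was -1.10, -0.94, and -1.06 in the normal libraries and -0.90, -0.93, and -0.83 in the DM1 libraries. The mean moved from -1.03 to -0.89, a difference of 0.15 that is small beside the fall of each gene. *Hspb2* to *Hspb3* moved from 3.99 ± 0.161 to 4.33 ± 0.250, a difference of 0.34 that was 0.20 without DM1 library 3. *Cryab* to *Hspb1* moved from -0.85 ± 0.0764 to -1.02 ± 0.0955, and *Hspb2* to its neighbor *Cryab* from -2.22 ± 0.0207 to -1.995 ± 0.111 (SD, n = 3 each). With p at its lower limit, none of these differences can pass a threshold of 0.05 in this permutation test, so it cannot decide whether the ratios changed.

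**Figure D4:**
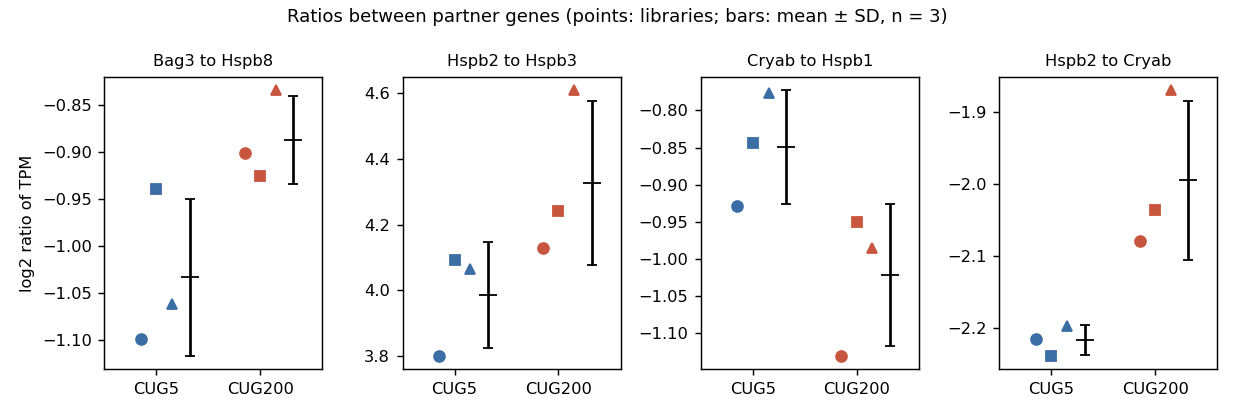
Log2 ratio of TPM for each pair of partner genes in the CUG5 (blue) and CUG200 (red) libraries, with bars for the mean ± SD (n = 3); each panel has its own axis, which does not start at 0. The groups are apart in every panel, by 0.15 for *Bag3* to *Hspb8* and 0.34 for *Hspb2* to *Hspb3*.

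Of the other genes of the small heat shock family, *Hspb11*, which encodes an intraflagellar transport protein also named IFT25, rose from 24.4 ± 2.02 to 41.7 ± 7.65 CPM (mean ± SD, n = 3), and its log2 fold change was 0.77 (adjusted p = 0.00980 by edgeR's quasi-likelihood test). *Hspb9*, a testis gene, had 4 to 24 counts a library and was not called (adjusted p = 0.488). *Cryaa*, the lens alpha A-crystallin, and *Odf1*, a sperm tail protein, had 0 counts in every library, where 3 counts would be between 0.0371 and 0.0486 CPM. The commonest low count in every library was 4, so that 3 counts may stand for less than 1 sequenced fragment, and this limit may be too low.

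The HSP70 machine, to which BAG3 couples its clients, was followed in a list of 29 genes, all of which were tested. Of these, 6 fell (*Hsph1*, *Bag5*, *Hspa2*, *Hspa4*, *Dnajb5*, and *Stip1*) and 1 rose, *Dnajb4*. The list had its median at -0.17 on the log2 scale, where that of all tested genes was 0.02, and of all tested genes 8.73% were lower and 7.13% higher. *Hsph1* encodes HSP110, the exchange factor that releases ADP from HSP70, and fell from 117 ± 5.11 to 73.4 ± 4.18 CPM (mean ± SD, n = 3), and its log2 fold change was -0.67 (adjusted p = 0.00249 by edgeR's quasi-likelihood test). *Bag5*, another BAG family exchange factor, had a log2 fold change of -0.58 (adjusted p = 0.0129), and *Hspa2*, an HSP70 best known from testis, one of -0.74 (adjusted p = 0.0152). *Hspa4* and *Dnajb5* had -0.37 and -0.60 (adjusted p = 0.0208 and 0.0254 by the same test). *Stip1*, the adaptor between HSP70 and HSP90, had -0.38 and *Dnajb4*, a J-domain co-chaperone, 0.38, both near the threshold (adjusted p = 0.0413 and 0.0423). The main HSP70 of unstressed cells, *Hspa8*, was at 1670 CPM in the normal and 1633 CPM in the DM1 group (log2 fold change -0.03, adjusted p = 0.877), and *Stub1*, which encodes CHIP, had -0.23 (adjusted p = 0.133). The inducible *Hspa1b* and *Hspa1a* are near-identical copies whose reads can be split between them. They had -0.61 and -0.47 and were not called in the main edgeR fit (adjusted p = 0.0516 and 0.111). For *Hspa1b* the call depended on the setting. Over the alternatives its adjusted p was lowest in DESeq2 (0.0118) and highest in edgeR without normal library 1 (0.169). In edgeR on all genes with at least 1 count it was called (adjusted p = 0.0384). As the lower calls among all genes went from 1660 to 668, 485, and 568, the 6 lower genes became 1 without normal library 1 and without normal library 3 and 2 without DM1 library 2, and the 1 higher gene became 0 with any 1 of the libraries left out except DM1 library 3, where it was 2. *Hsph1* alone of the 7 stayed called in all 16 alternatives.

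Of 21 heat shock factors and targets of HSF1, a list that shares genes with the one above, 3 fell (*Hsph1*, *Hsp90ab1*, and *Stip1*) and 0 rose, with a median of -0.15, beside 8.73% lower and 7.13% higher of all tested genes. In edgeR 1 gene was higher at an unadjusted p-value under 0.05, and DESeq2 called 0 higher. *Hsp90ab1*, the constitutive HSP90, fell from 2824 ± 209 to 1882 ± 249 CPM (mean ± SD, n = 3), and its log2 fold change was -0.59 (adjusted p = 0.0125 by edgeR's quasi-likelihood test). This call was lost without normal library 1, without normal library 3, and without DM1 library 2 (adjusted p up to 0.0672). In each of these 3 fits the list had 1 lower gene, and 2 genes were called higher without DM1 library 3. *Hsf1*, the main heat shock factor, had 35.7 and 28.0 CPM in the normal and DM1 groups (log2 fold change -0.35, adjusted p = 0.114), and *Dnajb1*, a sensitive target of it, 64.1 and 57.7 CPM (-0.15, adjusted p = 0.340). Of 18 genes of the HSP90, chaperonin, and myosin chaperone list, 3 fell and 0 rose (0 higher also at an unadjusted p-value under 0.05 in edgeR, and 0 in DESeq2), with a median of -0.03, beside the same 8.73% and 7.13% of all genes, and 2 fell in the fits that lost *Hsp90ab1*. Beside *Hsp90ab1* these were the muscle factors *Unc45b*, which folds myosin (log2 fold change -1.25, adjusted p = 0.00114), and *Smyd1*, a methyltransferase of sarcomere assembly (-0.90, adjusted p = 0.00104, same test). None of the chaperonin subunit genes, *Tcp1* and *Cct2* to *Cct8*, was called.

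Among 26 partners of BAG3 and filament clients, 4 fell and 0 rose, where 8.73% of all tested genes were lower and 7.13% higher, and the median was -0.16. At an unadjusted p-value under 0.05, 1 gene was higher in edgeR, and DESeq2 called 0 higher. *Sqstm1*, which encodes the autophagy receptor p62 of this route, fell from 278 ± 10.1 to 182 ± 9.63 CPM (mean ± SD, n = 3), and its log2 fold change was -0.61 (adjusted p = 0.00331 by edgeR's quasi-likelihood test), and stayed called in all 16 alternatives. The other 3 were the filament genes *Actn2* (-1.22, adjusted p = 0.00211), *Ttn* (-0.91, adjusted p = 0.00517), and *Des* (-0.43, adjusted p = 0.0233). *Actn2* and *Ttn* also stayed called in all 16, whereas *Des* was called in 11 of 16 and lost without any of the normal libraries, without DM1 library 2 (adjusted p up to 0.121), and in limma-trend with a pseudocount of 1. *Flnc*, the main client of the BAG3 route, had 365 and 302 CPM in the normal and DM1 groups (log2 fold change -0.27, adjusted p = 0.114, same test), and *Synpo2*, which links BAG3 to autophagosome membranes, ranged from 19.2 to 127 CPM in the normal libraries and had -0.16 (adjusted p = 0.923). As for *Hspb6*, its lowest value was in normal library 1. Without DM1 library 3, 8 genes of this list and 2111 of all genes were called lower.

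**Figure D5:**
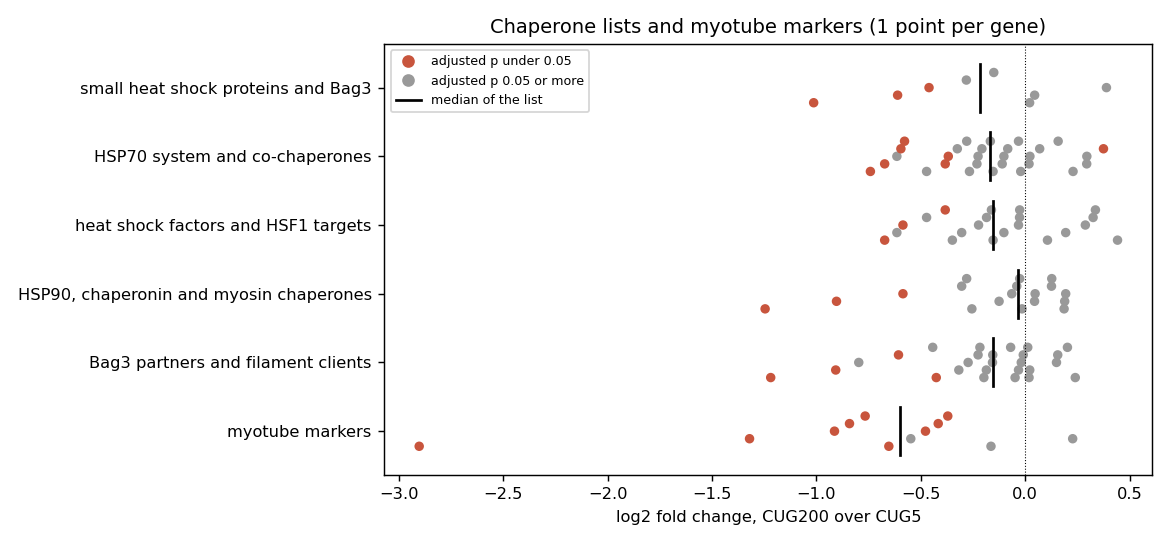
Log2 fold change, CUG200 over CUG5, of each tested gene in the chaperone lists and the myotube markers, with red for an adjusted p-value under 0.05 and a black line at the median. The median is -0.22 for the small heat shock proteins and *Bag3*, between -0.17 and -0.03 for the chaperone lists, and -0.60 for the myotube markers.

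Differentiation moved with the group as well. Of 12 myotube markers, 9 were lower and 0 higher in DM1 (1 higher at an unadjusted p-value under 0.05 in edgeR), where 8.73% of all tested genes were lower and 7.13% higher. Their median was -0.60 on the log2 scale, and their summed level was 10104 to 11208 CPM in the normal libraries and 6533 to 7145 CPM in the DM1 libraries. *Myog*, which marks committed myocytes, had -0.65 (adjusted p = 0.00227 by edgeR's quasi-likelihood test) and *Ckm*, the muscle creatine kinase, -0.84 (adjusted p = 0.00159). The marker that went the other way was the fusion gene *Mymx* (0.23, adjusted p = 0.0732, same test). The fusion gene *Mymk* (-0.55, adjusted p = 0.304) and *Mylpf* (-0.16, adjusted p = 0.403) were not called either. No myotube marker was at 0. Of 8 markers of undifferentiated myoblasts and reserve cells, to be read against the same shares, *Cd34* (0.97, adjusted p = 0.00305) and *Id2* (0.41, adjusted p = 0.0304) rose and *Hes1* fell (-0.67, adjusted p = 0.0143), and the median of the list was -0.17 with 6 of the 8 below 0. Their sum was 348 to 374 CPM in the normal and 391 to 418 CPM in the DM1 libraries, but without *Cd34*, left out after its values were seen, it was 284 to 296 and 262 to 269 CPM. The part of differentiation in the fall of *Hspb7*, *Hspb8*, and *Bag3* was not tested. Of the adipocyte markers, *Adipoq*, *Cidec*, and *Lep* had no counts and *Plin1* stayed below the filter, and of the leukocyte markers *Ptprc* and *Adgre1* had no counts, with a list sum of 3.19 to 4.56 CPM over all libraries. The endothelial list summed to 8.45 to 10.1 CPM in the normal and 3.86 to 5.72 CPM in the DM1 libraries, nearly all of it *Tek*, which fell with the group (log2 fold change -0.95, adjusted p = 0.0107 by edgeR), while *Pecam1*, *Cdh5*, and *Kdr* were below the filter.

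For each called member the tested genes with the most similar pattern were listed, by the root mean square difference of log2 CPM over the 6 libraries after centering each gene, among 14020 genes with at least 1 CPM on average. Nearest to *Bag3* were *Cluh* (0.0172), *Kpna6* (0.0260), and *Dip2c* (0.0278). Nearest to *Hspb8* were *Ano5* (0.0204), *Pdlim3* (0.0246), and *Adgrl3* (0.0292), and nearest to *Hspb7* were *Itga6* (0.0668), *Frmd4b* (0.0695), and *Hjv* (0.0837). The nearest gene of *Hspb7* was thus farther from it than those of *Hspb8* and *Bag3* were from them.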

How the data were processed

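The authors trimmed reads with Trim Galore, aligned them to GRCm38 with HISAT2, and quantified genes with StringTie. They deposited counts per gene without normalization, and for each library the coverage (signal), FPKM, and TPM values per gene. A deposited count stood for 74.4 to 75.0 aligned bases in the single-transcript members, and the commonest low count was 4. Genes were filtered with filterByExpr (minimum count of 10), scaled by TMM (factors 0.940 to 1.05), and compared with edgeR 4.0.16 (robust quasi-likelihood test, Benjamini-Hochberg adjustment over all tested genes). The alternatives were DESeq2 1.42.0, other scalings and filters, counts divided by 4, limma-trend (limma 3.58.1) on TPM, a replicate block, counts summed over overlapping genes, and each library left out. R 4.3.3 and Python 3.11.15 were used, and the tests were tested on simulated data. No pair of libraries was within sampling noise. The members and lists were chosen with earlier results of these data known. Named genes were the members, *Dmpk*, up to 5 called genes of a list in each direction with the smallest p-values, overlapping genes, and the 3 nearest genes of a called member. The myotube list did not follow this rule: *Myog* and *Ckm* were named, while *Myh8* (log2 fold change -2.90) had a smaller p-value than either. *Hspa8*, *Stub1*, *Hspa1a*, *Hspa1b*, *Hsf1*, *Dnajb1*, *Flnc*, *Synpo2*, the chaperonin genes, and the uncalled marker and family genes were named after their values were seen. Gene positions are from the GENCODE annotation of GRCm38. Intervals cover the spread between libraries.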

Additional observations from a re-analysis of the deposited data

How the results depend on the processing

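*Hspb7* and *Hspb8* kept their direction and call in all 16 alternatives, and *Cryab*, *Hspb3*, and *Hspb6* their direction without a call in all of theirs. The values are log2 fold changes unless counts are named. *Bag3* was called in 12 of its 17 alternatives. It was no longer past the threshold in limma-trend on TPM, at -0.57 with a pseudocount of 1 and -0.59 with one of 0.1. With a library left out it lay between -0.56 and -0.39. Its call was also lost without normal library 2, without normal library 3, and without DM1 library 2. *Hspb1* turned to -0.0083 with library sizes alone and -0.10 in both limma fits, and lay between -0.039 and 0.0897 with a library left out, and *Hspb2* turned to -0.0534 and -0.0541 in the limma fits, none of them called. The median of all genes also moved, from 0.02 to -0.0081 with library sizes alone and to -0.0618 and -0.0937 in the limma fits, so that *Hspb2* was above it in both. Of all genes, limma-trend called 427 and 434 higher and 816 and 850 lower with the pseudocounts of 1 and 0.1, against 1356 and 1660 in edgeR, and the fits with a library left out called 543 to 1678 higher and 485 to 2111 lower. In the HSP70 list 0 genes were higher with the replicate block and in both limma fits, and with a library left out 0 to 2 were higher and 1 to 6 lower. With a library left out the heat shock factor list had 1 to 4 lower and 0 to 2 higher, and the BAG3 partner list had 3 to 8 lower. The 4 partner ratios kept their direction in each alternative and moved by less than the larger of the SDs of the groups, but *Hspb2* to *Cryab* moved by more than the SD of the normal group, to 0.16 without DM1 library 3 and 0.26 without DM1 library 1. The cause of these shifts was not tested, but fits without a library have fewer samples. The correlation of deviations was 0.113, 0.0518, and 0.0538 for same-numbered libraries of the groups. For differently numbered ones it ran from -0.103 to 0.048. All are small, and whether same-numbered libraries pair was not tested. With the replicate block no member's call changed, at 3 lower.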
